A study of Mus musculus with 6 samples.

Results

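The TOX family of the mouse comprises 4 genes, Tox, Tox2, Tox3 and Tox4, out of 55291 gene symbols counted in full-grown oocytes. They were taken by name, and the family was chosen by the counts of Tox3 in this same experiment, which were 314 or more in every Pan2 knockout library and 0 in the wild-type library WT 1. Values of the members between knockout and wild type are therefore given as a description, with no test. Oocytes labelled KO (3 libraries, KO 1 to KO 3) were set against oocytes labelled WT, the large germinal-vesicle-stage cells that store maternal mRNA. PAN2, whose gene was targeted in KO, is the catalytic subunit of a deadenylase that shortens poly(A) tails, and both groups were sequenced from oligo(dT)-primed, preamplified cDNA. The labels name 3 WT samples, of which WT 1 and WT 2 have counts analysed here. The exons deleted, how they were deleted, the strain, the age of the females and the number of oocytes per library are not given in the labels, nor whether replicates came from separate females, so any spread between libraries may be technical.

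TOX proteins are nuclear factors that carry a single HMG box, a domain that binds and bends DNA with little regard for its sequence. TOX was described in developing thymocytes, where it is needed for the CD4 T-cell lineage, and it marks exhausted T cells. TOX2 was described in the rat as an HMG-box protein of granulosa cells, the somatic cells around the oocyte. TOX3 is a neuronal and luminal mammary coregulator that works with CREB and CITED1, and its locus has been linked in humans to breast cancer and polycystic ovary syndrome, while TOX4 is a widely expressed subunit of a nuclear phosphatase complex with WDR82, PNUTS and PP1.

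The 4 members are similar enough in part of their coding sequence that it matters whether their reads can be told apart. The stretch of 90 bases below is the one most alike across the 4 coding sequences (GENCODE M21 transcripts, mm10), and it is shown because the members are hardest to tell apart there. Capitals mark the positions at which the 4 genes are not all the same.
Tox: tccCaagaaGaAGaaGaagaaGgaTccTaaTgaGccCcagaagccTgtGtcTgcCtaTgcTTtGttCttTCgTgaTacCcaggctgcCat
Tox2: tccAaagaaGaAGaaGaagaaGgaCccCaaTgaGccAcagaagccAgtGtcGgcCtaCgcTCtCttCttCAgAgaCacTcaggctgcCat
Tox3: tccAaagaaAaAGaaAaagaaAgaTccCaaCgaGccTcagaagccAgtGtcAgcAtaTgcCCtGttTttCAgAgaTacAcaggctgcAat
Tox4: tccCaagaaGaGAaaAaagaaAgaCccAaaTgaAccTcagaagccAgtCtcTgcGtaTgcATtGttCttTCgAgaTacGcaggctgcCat
In this stretch 64 of 90 positions were the same in all 4 genes, and Tox, Tox2 and Tox4 differed from Tox3 at 18, 15 and 18 positions. Over the whole aligned coding sequence the identity of pairs ran from 49.9% for Tox2 and Tox4 to 58.1% for Tox and Tox2, and Tox3 was 57.5% identical to Tox, 54.2% to Tox4 and 52.8% to Tox2. The longest run of bases shared by any 2 members in their annotated transcripts was 24, between Tox and Tox3, against a read length of 151 bases.

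**Figure D1:**
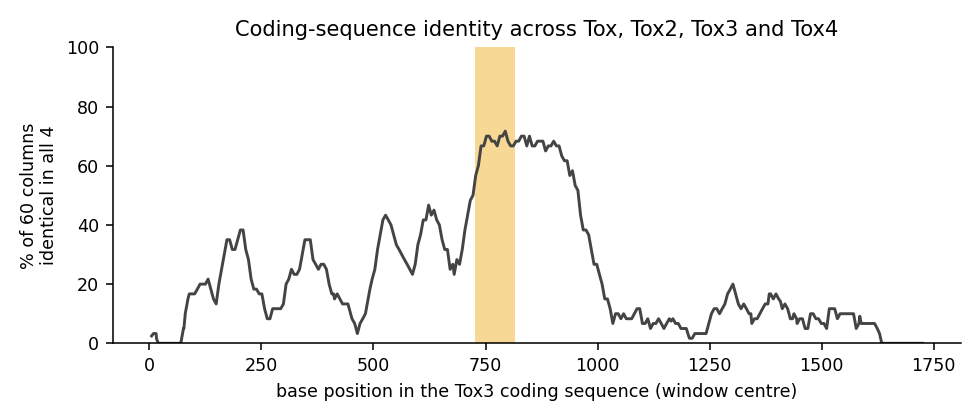
Share of positions identical in Tox, Tox2, Tox3 and Tox4 (percent of 60 alignment columns, vertical axis) along the Tox3 coding sequence (base position, horizontal axis). The shaded band is the 90-base stretch printed in the text, in which 71.1% of positions are identical in all 4 genes, against 30.9% of all gap-free columns.

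The start of Tox3 is shown as the reference sequence at the beginning of the only member with no count in WT 1. It covers 250 bases before to 50 after the RefSeq start (chr8:90348203-90348502, GRCm38.p6, minus strand), with CG dinucleotides in capitals.
Tox3: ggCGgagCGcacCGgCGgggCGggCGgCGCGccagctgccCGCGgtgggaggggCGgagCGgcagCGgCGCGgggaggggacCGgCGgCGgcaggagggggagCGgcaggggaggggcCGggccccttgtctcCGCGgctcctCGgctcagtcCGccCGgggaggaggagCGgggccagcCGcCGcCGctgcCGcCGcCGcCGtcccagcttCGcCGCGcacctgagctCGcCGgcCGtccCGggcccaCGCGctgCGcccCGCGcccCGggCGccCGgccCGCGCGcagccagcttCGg
This window holds 52 CG dinucleotides and is 85.3% G and C. Only 0.575% of 32851 RefSeq promoter windows of the same length hold as many, and the median window holds 7. Promoter windows were found for 3 of the 4 members. That of Tox4 holds 27 CG dinucleotides, and the 5 windows of Tox2 hold 7 to 39. Gene counts do not show which start was used or any methylation, so these letters are a description of the locus.

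The library WT 2 stood apart from the rest. Its values, as log2(CPM + 1) with CPM the depth-scaled counts, correlated across 27584 genes with the other libraries at 0.234 to 0.242, except on the first 90 Mb of chromosome 16, where it reached 0.931 to 0.942 over 707 genes, and the other 4 libraries correlated with one another at 0.973 to 0.994 in both sets. No TOX gene lies on chromosome 16, and the column lists 0 counts for Tox, Tox3 and Tox4 and 321 for Tox2. Because a count in that column may not belong to the gene it is listed for, WT 1 alone served as wild type and WT 2 appears only where stated. A lone WT 1 gives no measure of the spread between wild-type libraries. Totals were 12038990, 23359636 and 26770521 counts in KO 1, KO 2 and KO 3, and 23485093 counts in WT 1. The oocyte genes Gdf9 (a secreted growth factor) and Zp3 (a zona pellucida protein) stood at 3615 ± 287 and 2915 ± 500.1 CPM in KO (SD, n = 3) and, in WT 1, at 4245 and 3003 CPM. Of 13 oocyte markers, all tested, 7 had a log2 fold change of KO over WT 1 above 0, with a median of 0.04. Nobox, for one, stood at 723 ± 201 CPM in KO and 502 CPM in WT 1. Pan2 itself had 44.5, 11.9 and 34.0 CPM in KO 1, KO 2 and KO 3 and 77.5 CPM in WT 1, which gave -1.37 on the log2 scale (SE 0.53) and did not pass (edgeR adjusted p = 0.301). The adjusted p of Pan2 was 0.0085 when all genes with a count were kept and 1.43e-14 with KO 1 left out, and was at most 0.602 in the other alternatives that leave WT 2 aside (0.992 with WT 2).

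Tox3 (ENSMUSG00000043668.13, chromosome 8, 90247040 to 90348343 in mm10, minus strand) was read in all KO libraries but not in WT 1. It had 314, 959 and 884 counts in KO 1, KO 2 and KO 3, and 0 counts in WT 1. Scaled for depth these are 25.5, 42.8 and 33.0 CPM in KO, a mean of 33.8 ± 8.70 CPM (SD, n = 3), against 0 in WT 1, where 3 counts would have been 0.125 CPM. Every KO library lay above WT 1, the contrast for which Tox3 was chosen. KO 1 was the lowest and KO 2 the highest of the KO libraries, 1.68-fold apart. At the lowest KO level WT 1 would have held 610 counts of Tox3, and at the mean KO level 809. Set against a floor of 3 counts in WT 1, Tox3 was at least 203-fold higher in KO 1, 342-fold in KO 2 and 264-fold in KO 3. The mean of these KO levels lay 269.6-fold above the floor, and the 2157 pooled KO counts, which weight the deeper libraries more, 280-fold. This floor allows for counting error alone, because reads from amplified cDNA are not separate molecules. In bulk RNA, fewer cells with a transcript and less of it per cell cannot be told apart. Because cDNA was primed on poly(A), capture and abundance cannot be told apart either.

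Tox (ENSMUSG00000041272.11, chromosome 4, 6686353 to 6991557, minus strand) was the least abundant member per exon length in KO. It lay above WT 1 in each KO library, but how many of all genes do so against a lone WT library was not counted. Its counts were 107, 194 and 154 in KO 1, KO 2 and KO 3, and 86 in WT 1. The normalized levels were 8.68, 8.66 and 5.76 CPM in KO (7.70 ± 1.68 CPM, SD, n = 3) and 3.59 CPM in WT 1, so that KO 3 came nearest to WT 1 without reaching it. The mean of KO was 2.14-fold that of WT 1, or 1.09 on the log2 scale (SE 0.49). Of its exon bases 3.42% are shared with Gm11802, an antisense gene at 0 to 0.0447 CPM in these libraries.

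Tox2 (ENSMUSG00000074607.11, chromosome 2, 163203125 to 163324170, plus strand), the member known from granulosa cells, had overlapping levels in KO and WT. It had 366, 658 and 557 counts in KO 1, KO 2 and KO 3, and 506 in WT 1. That is 29.7, 29.4 and 20.8 CPM in KO (26.6 ± 5.04 CPM, SD, n = 3) and 21.1 CPM in WT 1. WT 1 lay between KO 3 and the other KO libraries, and the log2 fold change was 0.33 (SE 0.37).

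Tox4 (ENSMUSG00000016831.12, chromosome 14, 52279146 to 52296401, plus strand), the phosphatase-complex member, varied least. It had 119, 216 and 305 counts in KO 1, KO 2 and KO 3, and 250 in WT 1. Its levels were 9.66, 9.65 and 11.4 CPM in KO (10.2 ± 1.01 CPM, SD, n = 3) and 10.4 CPM in WT 1, which fell inside the KO range, with a log2 fold change of -0.03 (SE 0.40). Mettl3, the m6A methyltransferase gene on the other strand, shares 13.4% of the exon bases of Tox4, and Rab2b, also on the other strand, shares 2.81%. Mettl3 stood at 21.1, 47.7 and 37.2 CPM in KO 1, KO 2 and KO 3 and at 23.9 CPM in WT 1. No source used here states whether reads were counted by strand, so those of the shared part cannot be assigned with certainty. No exon base of Tox2 or Tox3 is shared with another gene of the table.

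**Figure D2:**
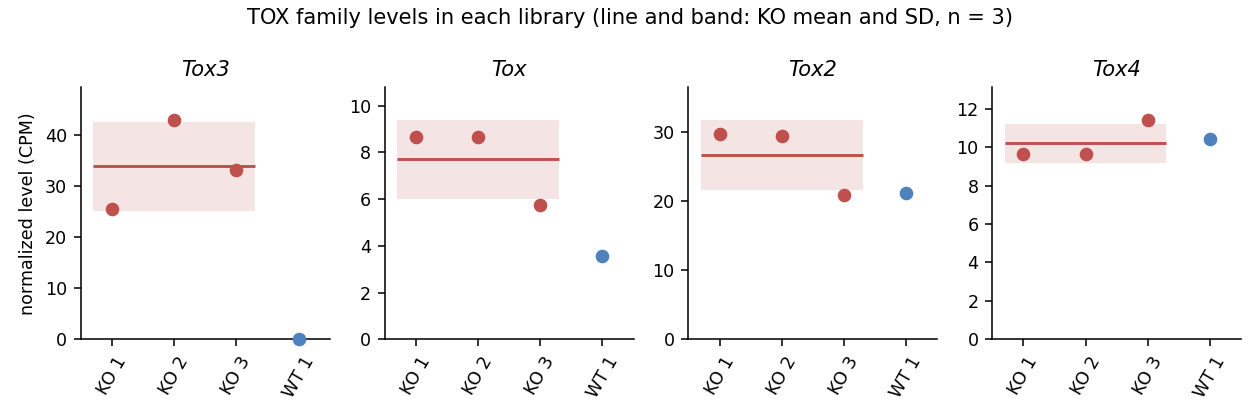
Normalized level (CPM, vertical axes from 0) of each TOX gene in KO 1 to KO 3 (red) and WT 1 (blue), one point per library. The line and band are the KO mean and SD (n = 3). Tox3 lies between 25.5 and 42.8 CPM in KO and at 0 in WT 1, while for Tox2 and Tox4 WT 1 lies within the KO range.

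Over all genes, 1.93% of the 17799 tested passed an adjusted p of 0.05 in edgeR between KO and WT 1, 1.32% higher and 0.612% lower in KO. Of the 4 members, 1 was called, Tox3, the gene for which the family was chosen, so nothing can be read from this share. With both WT libraries 0 genes (0% of those tested) passed in edgeR, and 1050 had an unadjusted p under 0.05. Without KO 1 the number passing was 4922, or 28.1% of those tested, and 2 of the 4 members, Tox and Tox3, were among them. The median log2 fold change of all genes tested was 0.02.

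**Figure D3:**
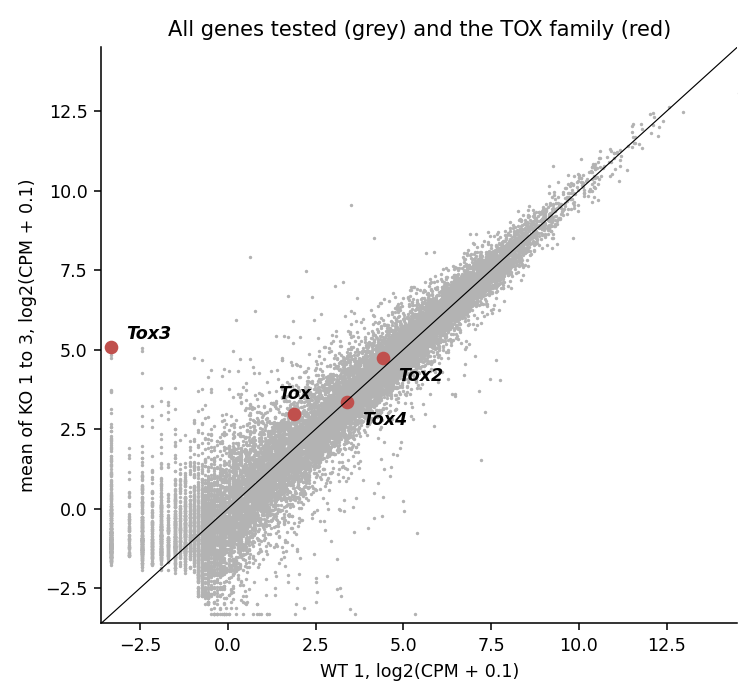
Mean level of KO 1 to KO 3 (vertical axis) against WT 1 (horizontal axis) for all 17799 genes tested, both as log2(CPM + 0.1), with the line of equality and the TOX genes in red. Tox3 lies at the left edge, at a mean of 33.8 CPM in KO against 0 in WT 1, and Tox2 and Tox4 lie near the line.

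Tox3 and Tox2 were the most abundant members of the family in KO oocytes when counts were divided by exon length, which is needed to compare genes. Tox3 had 7.59, 12.8 and 9.84 CPM per kb of exon in KO 1, KO 2 and KO 3 (10.1 ± 2.59, SD, n = 3) and 0 in WT 1. Tox2 had 8.73, 8.64 and 6.12 CPM per kb in KO (7.83 ± 1.48) and 6.21 CPM per kb in WT 1. Tox4 followed at 1.47 ± 0.145 CPM per kb in KO and 1.5 CPM per kb in WT 1, and Tox at 1.01 ± 0.221 CPM per kb in KO and 0.472 CPM per kb in WT 1. The order of the upper pair was not fixed: the ratio of Tox3 to Tox2 per kb was 0.869 in KO 1, 1.48 in KO 2 and 1.61 in KO 3. Tox4 lay above Tox in every library, by 1.22-, 1.22- and 2.17-fold in KO 1, KO 2 and KO 3 and by 3.18-fold in WT 1, but their KO means lie close together. In each KO library Tox3 exceeded Tox4 by 5.46- to 9.19-fold, whereas WT 1 had the order Tox2, Tox4, Tox, with Tox3 at 0.

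**Figure D4:**
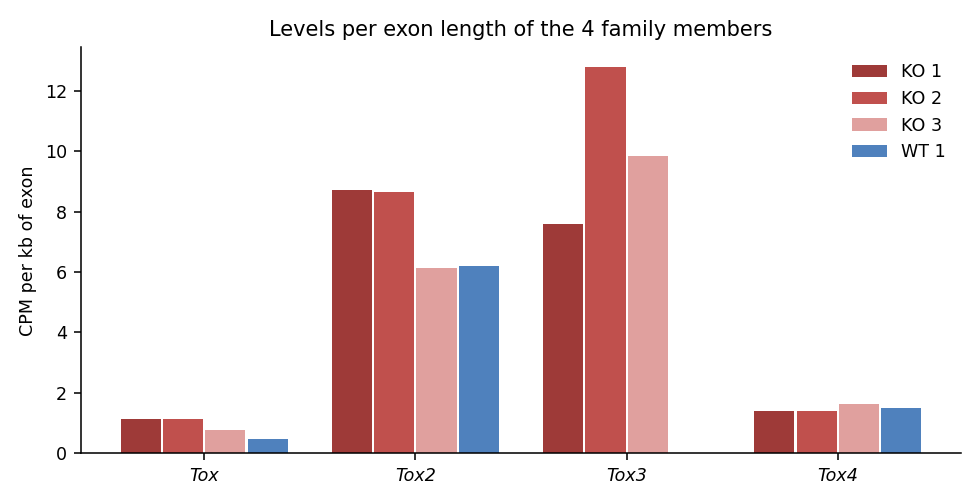
Level per exon length (CPM per kb, vertical axis from 0) of Tox, Tox2, Tox3 and Tox4 in KO 1, KO 2 and KO 3 (reds) and WT 1 (blue), one bar per library. Tox3 has the highest bars in KO 2 and KO 3, at 12.8 and 9.84 CPM per kb, and none in WT 1.

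The summed level of the other 3 members was not lower in KO than in WT 1. The sum of all 4 was higher in KO, but it includes Tox3, for which the family was chosen. All 4 members together reached 18.9, 23.9 and 18.4 CPM per kb in KO 1, KO 2 and KO 3, and 8.19 CPM per kb in WT 1. Without Tox3 the sums were 11.3, 11.2 and 8.52 CPM per kb in KO and 8.19 CPM per kb in WT 1, so KO 3 was close to WT 1. Tox3 made up 40.3%, 53.3% and 53.6% of the family level per length in KO 1, KO 2 and KO 3 (49.1 ± 7.63%, SD, n = 3) and 0% in WT 1. Tox2 made up 46.3%, 36.1% and 33.3% in KO, and 75.9% in WT 1. Among all genes tested, in CPM not divided by length, the KO mean of Tox3 exceeded that of 71.6%, Tox2 67.9%, Tox4 53.8% and Tox 49.9%.

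Few genes had exactly 0 counts in WT 1 at a clear level in KO, the pattern for which Tox3 was chosen. Of 9255 genes with at least 5 CPM in every KO library, 9 had 0 counts in WT 1, 6 of them protein-coding, and Tox3 had the highest KO mean of the 9. In the other direction, 2 of 9887 genes with at least 5 CPM in WT 1 had 0 counts in every KO library. That rule asks for 0 in every KO library and the first for 0 in WT 1 alone, so these numbers cannot be compared directly. Likeness to Tox3 was measured as the Euclidean distance of log2 CPM over the 4 libraries, leaving out genes with predicted or clone-based names. The nearest of those kept was Sh3rf2, a RING-finger ubiquitin ligase gene, at a distance of 1.13 and rank 2 among all genes tested. It had 28.3, 29.4 and 41.3 CPM in KO 1, KO 2 and KO 3 and 2 counts in WT 1, which the cut at 0 counts leaves out. Iqcf1, an IQ-motif gene, followed at 1.51, with 42.5, 18.0 and 24.6 CPM in KO and 0 counts in WT 1. Its highest library was KO 1, in which Tox3 was lowest. Extl1, an exostosin-like glycosyltransferase gene, lay at 1.72, Raet1d, a ligand gene of an activating receptor of natural killer cells, at 2.37, and Ptpro, a receptor tyrosine phosphatase gene, at 2.61. They lie on chromosomes 18, 9, 4, 10 and 6, none on that of Tox3, and the paralogues Tox, Tox4 and Tox2 were at 6.48, 7.43 and 7.87. Among the 9 genes with 0 counts in WT 1, however, Defb8 lies on chromosome 8, as Tox3 does. It had 5.36, 11.1 and 7.47 CPM in KO 1, KO 2 and KO 3.

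The protein-coding genes around Tox3 on chromosome 8 did not show a clear level in KO against 0 counts in WT 1. Sall1, a zinc-finger gene of kidney and limb development and the nearest on the side of lower coordinates at 1203 kb, had 0 counts in these 4 libraries. On the other side Gm19935, at 468 kb, had at most 2 counts in a library. Chd9, a chromodomain helicase gene at 480 kb, stood at 75.9, 68.5 and 85.4 CPM in KO 1, KO 2 and KO 3 and at 125 CPM in WT 1 (log2 fold change -0.70, SE 0.30, edgeR adjusted p = 0.345, from 0.00169 without KO 1 to 0.995 over the alternatives). The 9 other annotated genes between Sall1 and Gm19935 had at most 10 counts in a KO library and 8 in WT 1. Nod2, an innate immune receptor gene, and Cyld, a deubiquitinase gene, stood at 19.3 ± 5.75 and 6.98 ± 0.966 CPM in KO (SD, n = 3) and at 14 and 7.56 CPM in WT 1, with edgeR adjusted p of 0.702 and 0.939.

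Rbl2, which encodes the pocket protein p130 and lies 722 kb from Tox3, was the neighbour nearest to passing. It had 60, 146 and 200 counts in KO 1, KO 2 and KO 3, and 24 in WT 1, or 4.87, 6.52 and 7.47 CPM in KO and 1.00 CPM in WT 1. All KO libraries lay above WT 1, by 2.65 on the log2 scale (SE 0.58, edgeR adjusted p = 0.0512). Its adjusted p was below 0.05 in 6 of 10 alternatives, among them each of those leaving out 1 KO library, and ran from 2.94e-07 without KO 1 to 0.995. When WT 2 was added, the estimate for Rbl2 became -2.06, and the WT 2 column lists more counts for it than any other library.

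**Figure D5:**
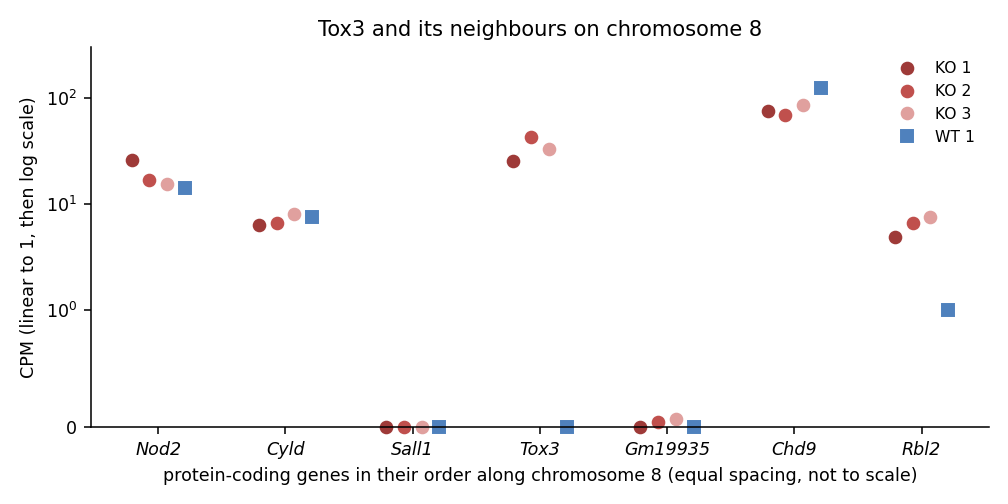
Level (CPM, vertical axis, linear up to 1 and logarithmic above) of Tox3 and the 3 annotated protein-coding genes on each side, in their order along chromosome 8 with equal spacing, in KO 1 to KO 3 (red circles) and WT 1 (blue squares). Tox3 is at 25.5 to 42.8 CPM in KO and 0 in WT 1, whereas Chd9 is above 68 CPM in every library and Sall1 is at 0.

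Related genes were read from 5 lists holding 71 genes, of which 56 could be tested between KO and WT 1. These were genes that act with the family and, as relatives by the HMG box alone, 25 other HMG-box genes and 19 SOX genes. None passed in either direction in edgeR, DESeq2 or limma-voom, which called 1.93%, 3.87% and 1.3% of all genes. An unadjusted p under 0.05 in edgeR was found for 7 of the 56, or 12.5%, against 13.3% of all genes tested (2369 of 17799). Without KO 1, 19 of 57 passed in edgeR (33.3%), against 28.1% of all genes. In the list of CREB-type partners of TOX3, all 10 were tested, with a median log2 fold change of -0.36 and 3 above 0. Creb1, the transcription factor that TOX3 binds, was at 4.16 ± 0.625 CPM in KO and 6.06 CPM in WT 1. Its coactivator Crebbp stood at 176 ± 45.1 CPM in KO and 204 CPM in WT 1. Cited1, the other partner, was low, at 1.72 ± 0.273 CPM in KO and 0.877 CPM in WT 1. Cited2, in the same list, was higher in KO, at 149 ± 39.5 CPM against 67.7 CPM in WT 1 (log2 fold change 1.13). The member with the lowest p was Ep300, a histone acetyltransferase gene, at 25.0 ± 7.11 CPM in KO and 54.9 CPM in WT 1 (edgeR adjusted p = 0.188).

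The 5 genes of the TOX4 phosphatase complex were all expressed, with a median log2 fold change of -0.42 and 1 above 0. Ppp1r10, which encodes PNUTS, the targeting subunit, was nearest to passing at 145, 123 and 99.9 CPM in KO 1, KO 2 and KO 3 and 218 CPM in WT 1 (edgeR adjusted p = 0.275). Wdr82 stood at 122 ± 45.4 CPM in KO and 163 CPM in WT 1, and the PP1 catalytic genes Ppp1ca, Ppp1cb and Ppp1cc at 34.6, 38 and 13.0 CPM in KO and 37.4, 58.8 and 12.0 CPM in WT 1.

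Of 12 T-cell factors that act with TOX, 8 were tested, with a median of 0.36 and 5 above 0. Nfatc2, a calcineurin-regulated factor upstream of TOX, stood at 14.6 ± 2.57 CPM in KO and 10.4 CPM in WT 1, and Gata3, which directs CD4 T cells, at 41.4 ± 3.04 and 33.6 CPM. Those below 0 were Nfatc3, Bcl6 and Zbtb7b, at 1.29 ± 0.151, 4.42 ± 1.29 and 13.7 ± 6.69 CPM in KO. In WT 1 they stood at 2.88, 6.18 and 14.1 CPM. Nr4a3, an orphan nuclear receptor gene linked to TOX in exhausted T cells, had 0, 12 and 37 counts in KO 1, KO 2 and KO 3 and 0 counts in WT 1 (edgeR adjusted p = 0.342).

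Of 25 other HMG-box genes 23 were tested, with a median of -0.08 and 11 above 0. Tcf7, which encodes the Wnt effector TCF1, was nearest to passing, at 48.6, 58.6 and 45.8 CPM in KO 1, KO 2 and KO 3 and 24.0 CPM in WT 1 (edgeR adjusted p = 0.199). The chromatin protein gene Hmgb2 was far more abundant than any TOX gene in CPM, at 1409 ± 171 in KO and 932 in WT 1. Of 19 SOX genes 10 were tested, with a median of -0.17 and 3 above 0. Sox5, a SOXD gene, was nearest to passing, at 5.36, 2.59 and 1.20 CPM in KO 1, KO 2 and KO 3 and 0.710 CPM in WT 1 (edgeR adjusted p = 0.355). Each of Ep300, Ppp1r10, Nr4a3 and Tcf7 passed without KO 1, and in no other alternative that gave an adjusted p, and Sox5 in none.

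Other ovarian and blood cells can express TOX genes, so their markers were read beside the family. Of 15 granulosa and cumulus markers, 10 were under 1 CPM in WT 1 and all KO libraries. Their summed level was 94.5, 100.4 and 84.5 CPM in KO 1, KO 2 and KO 3 and 64.4 CPM in WT 1. Of the 8 that were tested, 7 had a log2 fold change above 0, with a median of 0.68, against a median of 0.02 over all genes. The exception was Hsd17b1, at 0.124 ± 0.0447 CPM in KO and 0.501 CPM in WT 1. Most of the summed level came from Nr5a2, a nuclear receptor gene at 43.4 ± 5.71 CPM in KO and 42.4 CPM in WT 1, and Cyp19a1, the aromatase gene. Cyp19a1 stood at 38.8 ± 6.30 CPM in KO and 13.9 CPM in WT 1 (edgeR adjusted p = 0.0967, from 2.39e-08 to 0.992 over the alternatives). It passed in 3 of 10 alternatives, which were DESeq2 (0.00777), no filter on low counts (0.0258) and edgeR without KO 1. Kitl, which encodes the ligand of the oocyte receptor KIT, stood at 7.71, 6.16 and 9.68 CPM in KO 1, KO 2 and KO 3 and at 5.47 CPM in WT 1 (edgeR adjusted p = 0.689). Each of the others was at most 2.03 CPM in any of these libraries. Among them Inhba, an activin subunit gene, had 0.563 ± 0.367 CPM in KO and 0.0835 CPM in WT 1, the FSH receptor gene Fshr 0.711 ± 0.553 CPM in KO and 0.292 CPM in WT 1, and Foxl2, a granulosa transcription factor gene, 0.162, 0 and 0 CPM in KO and 0.251 CPM in WT 1.

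T-cell and leukocyte markers summed to 3.25, 2.81 and 1.94 CPM in KO 1, KO 2 and KO 3 and to 2.38 CPM in WT 1. Cd3d had 0 counts in all of them, and Ptprc at most 0.0893 CPM in KO and 0 in WT 1, while most of the sum was Cd4 (2.35 ± 0.681 CPM in KO, 1.75 CPM in WT 1, edgeR adjusted p = 0.821). Theca, stromal and endothelial markers summed to 31.1, 30.7 and 30.3 CPM in KO and 17.8 CPM in WT 1, mostly Pecam1, at 25.5 ± 0.791 CPM in KO and 14.7 CPM in WT 1 (edgeR adjusted p = 0.377, lowest 0.0102 over the alternatives). Of the 6 tested, 4 had a log2 fold change above 0, with a median of 0.62. The exceptions were Pdgfra and Acta2, at 0.418 ± 0.133 and 0.418 ± 0.203 CPM in KO and each at 0.501 CPM in WT 1. The endothelial receptor gene Kdr stood at 3.16, 1.61 and 1.42 CPM in KO 1, KO 2 and KO 3 and at 0.794 CPM in WT 1 (edgeR adjusted p = 0.48). Dcn, a stromal proteoglycan gene, had 0.861 ± 0.734 CPM in KO and 0.251 CPM in WT 1. Cdh5, Col3a1 and Col1a2 had 0 counts in these 4 libraries. None of the 28 tested members of the marker lists, oocyte markers included, passed in edgeR or limma-voom, while Cyp19a1 passed in DESeq2 and, with no filter, in edgeR, which then called 3.07% of all genes. Without KO 1, 5 of 27 (18.5%) passed in edgeR, against 28.1% of all genes: Cyp19a1, Pecam1 and the oocyte genes Figla, Nobox and Zp1 (the oocyte gene with the lowest p in the comparison of all 4 libraries was Figla, adjusted p = 0.407). The part of other cell types in the level of Tox3 was not tested.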

How the data were processed

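Counts of reads per gene were deposited for 5 libraries of full-grown mouse oocytes. Per the submitters' processing notes the authors used Trim Galore 0.6.7, STAR 2.7.10a and featureCounts 2.0.2 on mm10. No source used here states the annotation release, the strand setting or the handling of multimapping reads. Every deposited column matched a sample title, from which group and replicate number were taken. WT 3 was not analysed here.

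KO 1 to 3 and WT 1 were compared by the robust quasi-likelihood test of edgeR 4.0.16 in R 4.3.3, after TMM scaling and filterByExpr, with Benjamini-Hochberg adjusted p over the 17799 genes kept. With 1 WT library, its spread was taken to equal that within KO. CPM use the TMM factors, and CPM per kb the deposited exon length. DESeq2 1.42.0, limma 3.58.1 and the other alternatives are in the closing section. The steps were tested on simulated data. No pair among these 4 libraries agreed within sampling noise (chi-square over degrees of freedom 19.4 to 136). The lowest value was that of KO 2 with KO 3. By this measure KO 1 lay nearer to WT 1 (45.7) than to KO 2 (74.8) or KO 3 (87.0). WT 1 gave 131 with KO 2 and 136 with KO 3. The correlations of log2(CPM + 1) placed KO 1 nearer to KO 2 (0.984) and KO 3 (0.983) than to WT 1 (0.979). In them 3 counts were worth 0.112 to 0.243 CPM. The members and lists were chosen with earlier results of these data known.

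Genes were named by a rule: Pan2, the TOX genes, per list the called members with the lowest p (2 each way) or else the 1 with the lowest p, the 5 genes nearest to Tox3 and 3 protein-coding neighbours on each side. Partner, marker and abundant genes named with their values beyond this were picked after their values were seen. All coordinates are mm10, and those of the TOX genes were identical in GENCODE M21. Coding sequences were aligned with MAFFT.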

Additional observations from a re-analysis of the deposited data

Results flagged for a closer look

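WT 2, which the comparison of KO with WT 1 does not use, lists 321 counts for Tox2, or 84.8 CPM. This CPM was scaled by the total of WT 2 alone, without a TMM factor, unlike the other Tox2 levels. Tox2 lies on chromosome 2, where the column did not follow the other libraries.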

How the results depend on the processing

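Leaving out each KO library kept the pooled Tox3 counts 7.93 to 8.23 log2 units above the floor of WT 1 (8.13 with all) and its share of the family level at 46.8 to 53.5%. The log2 fold changes were then 0.99 to 1.27 for Tox, 0.25 to 0.48 for Tox2 and -0.11 to 0.02 for Tox4. WT 1 could not be left out, as no other usable WT library remained. With coding length the Tox3 share was 42.1%, and with no length scaling 42.8%. Another scaling, no filter, DESeq2 or limma-voom moved no member by more than the spread of the KO libraries.

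With both WT libraries, log2 fold changes were 2.04 for Tox, -0.78 for Tox2 and 0.95 for Tox4, and with the replicate block 3.82, -0.39 and 3.16. The bound of Tox3 was 8.39 in both, with the depth of WT 2 counted in the floor. It adds nothing for Tox3, because a count in that column may not belong to the gene it is listed for. The replicate numbers are shared by 2 pairs, one of which holds WT 2, so whether they pair the samples could not be judged. Genes called (344) became 868 without a filter, 688 with DESeq2, 0 with both WT libraries (edgeR, 1050 at an unadjusted p under 0.05) and 0 with the replicate block (1 at an unadjusted p under 0.05), and 425 to 4922 without 1 KO library. Of the related genes 0 to 19 were then called, the 19 (9 higher, 10 lower) being 33.3% of the 57 tested without KO 1, where 28.1% of all genes were called. Also with both WT libraries, and then with the block, these turned sign: Cd4 (-0.56, -0.18), Figla (0.37, 4.31), Pecam1 (-1.84, -0.98), Ppp1r10 (0.11, 1.56), Cyld (0.86, 2.79), Chd9 (0.03, 0.35) and Rbl2 (-2.06, -0.37), by the added WT 2 column. The lone WT library limits every comparison.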
